A study of Mus musculus with 6 samples.

Results

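Small leucine-rich proteoglycans (SLRPs) are secreted matrix proteins built around a chain of leucine-rich repeats, many of which carry chondroitin, dermatan or keratan sulfate chains. They bind collagen fibrils, influence how fibrils grow and pack, and hold growth factors such as TGF-beta in the matrix. In bone, biglycan and decorin are among the abundant non-collagenous components of the matrix, and osteoblasts are one of their sources. Here 10 SLRP genes were taken by gene symbol from the GENCODE M21 annotation, out of 55401 gene identifiers in the count tables. The rule used no measured value, but the members were chosen with earlier results of these data known. They are *Bgn*, *Dcn* and *Aspn* of class I, *Fmod*, *Lum*, *Prelp*, *Kera* and *Omd* of class II, and *Ogn* and *Epyc* of class III. The classes follow sequence and gene structure.

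Polyadenylated RNA of the whole tibia was sequenced from 3 Atrx-cKO mice (*Osterix-Cre; Atrx f/y*) and 3 control mice (*Atrx f/y*), all male and 8 weeks old. ATRX is a chromatin remodeler of the SWI/SNF type, and the study asked what its loss in the osteoblast lineage does to bone. All 6 mice carried the floxed *Atrx* allele, in which exon 18 is flanked by loxP sites, and the transgene was present in Atrx-cKO mice alone, so an effect of *Osterix-Cre* itself and of *Atrx* deletion cannot be told apart in these libraries. *Osterix-Cre* is a Tet-off Cre under the *Sp7* (Osterix) promoter, active in preosteoblasts, and doxycycline kept it silent until 3 weeks of age. Whole tibia holds bone cells, marrow, cartilage and attached soft tissue, so fewer cells of a type and less RNA per cell cannot be told apart in any of the values below.

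Each library held between 50977777 and 70571655 reads that were counted on a gene. Levels are given as CPM, counts scaled to a common library size by the TMM method, and 3 counts correspond to 0.0425 to 0.0588 CPM. *Atrx* itself had 163 ± 9.54 CPM in Atrx-cKO and 169 ± 4.98 in control (SD, n = 3), a count over the whole gene that does not separate the floxed exon and so does not check the genotypes. Of 20636 genes tested, edgeR's quasi-likelihood test called 3, or 0.0145%, when a Benjamini-Hochberg adjusted p had to lie under 0.05, and none of these was an SLRP. Control replicate 1 stood with the Atrx-cKO libraries rather than with the other controls in the main bone collagen, *Col1a1*, at 53548 CPM against 92517 and 82629 in control replicates 2 and 3 and 57564 to 58165 in Atrx-cKO. Control replicate 3 had the highest sum over 12 skeletal muscle markers, 14376 CPM against 839 to 2917 in the other 5 libraries. Results that turned or gained a call without either library are therefore also given without it.

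*Bgn* (ENSMUSG00000031375) lies alone on chromosome X from 73483602 to 73495933. The other 9 genes lie in 3 clusters on GRCm38. On chromosome 10, *Dcn*, *Lum*, *Kera* and *Epyc* follow each other on the plus strand within 202.846 kb. On chromosome 13, *Aspn*, *Omd* and *Ogn* follow each other on the plus strand within 80.059 kb, and *Ecm2*, a further leucine-rich repeat protein of the matrix, ends 11.653 kb before *Aspn*. On chromosome 1, *Prelp* on the minus strand and *Fmod* on the plus strand lie within 137.974 kb, and *Optc*, the opticin gene, lies 2.304 kb from *Prelp*. The *Cenpp* gene on the opposite strand spans *Aspn*, *Omd* and *Ogn*, and its exons share 7 bases with *Aspn* and none with the other pair. The antisense gene *Gm15851* shares 350 exonic bases with *Prelp*, and *Gm10754* shares 1041 with *Epyc*. Whether counting used strand is not given in the sources used here, so reads in those shared bases cannot be assigned to a strand with certainty.

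The promoters of *Bgn* and of the 3 chromosome 13 neighbors are shown because the former had the highest level of the family and the latter, although adjacent, had fitted log2 fold changes that ran from -0.82 to -0.07. Each window holds 250 bases before and 50 bases after the start site of the RefSeq annotation of GRCm38.p6, on the plus strand at chrX:73483351-73483650, chr13:49544193-49544492, chr13:49582212-49582511 and chr13:49607765-49608064. Capitals mark matches to the motifs described in the next paragraph.
Bgn: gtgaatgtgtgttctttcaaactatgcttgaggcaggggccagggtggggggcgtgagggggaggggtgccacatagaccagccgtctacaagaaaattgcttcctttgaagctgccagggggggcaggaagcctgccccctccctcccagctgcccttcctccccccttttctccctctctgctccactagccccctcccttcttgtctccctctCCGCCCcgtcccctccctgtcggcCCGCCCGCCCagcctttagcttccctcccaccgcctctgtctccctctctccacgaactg
Aspn: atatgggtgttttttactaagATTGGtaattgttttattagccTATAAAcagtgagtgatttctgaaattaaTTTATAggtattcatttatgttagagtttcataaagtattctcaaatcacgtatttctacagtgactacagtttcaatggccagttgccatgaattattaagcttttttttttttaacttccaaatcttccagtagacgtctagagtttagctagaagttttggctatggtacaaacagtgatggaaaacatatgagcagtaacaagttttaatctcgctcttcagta
Omd: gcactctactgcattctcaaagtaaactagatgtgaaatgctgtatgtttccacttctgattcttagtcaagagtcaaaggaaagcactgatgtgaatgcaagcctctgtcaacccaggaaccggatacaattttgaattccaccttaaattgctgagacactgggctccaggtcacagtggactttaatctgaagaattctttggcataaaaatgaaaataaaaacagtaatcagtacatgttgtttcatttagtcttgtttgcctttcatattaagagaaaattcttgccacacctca
Ogn: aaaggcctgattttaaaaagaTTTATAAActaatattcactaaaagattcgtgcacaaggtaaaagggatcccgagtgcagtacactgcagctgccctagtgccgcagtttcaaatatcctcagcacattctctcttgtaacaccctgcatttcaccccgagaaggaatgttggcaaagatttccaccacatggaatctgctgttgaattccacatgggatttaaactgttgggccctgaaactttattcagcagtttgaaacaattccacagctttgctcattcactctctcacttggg

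RefSeq promoter windows were found for 8 of the 10 genes, 9 windows in all because *Epyc* had 2, and *Dcn* and *Lum* were not matched. Motifs were searched on both strands by their letters. The core promoter element known as the TATA box was searched as TATAAA, the binding sequence of the factor NF-Y as CCAAT, the binding sequence of Sp1 type factors, or GC box, as GGGCGG, that of RUNX factors as TGNGGTT, and that of AP-1 dimers as TGANTCA. The *Bgn* window held 3 GC boxes, at positions -34, -10 and -6 from the start site, the last pair overlapping, and was the only SLRP window of the 9 with a match, against 35.7% of 32851 windows in the whole table. TATAAA occurred in *Aspn* and *Ogn*, 2 of 9 windows against 13.6% of all, at positions -207 and -178 in *Aspn* and -229 and -227 in *Ogn*, where the matches on opposite strands overlap. CCAAT occurred in *Prelp*, *Fmod*, *Kera* and *Aspn*, 4 of 9 against 37.4% of all, and *Kera* held 3 copies. The RUNX and AP-1 letters, held by 14.9% and 7.81% of all windows, occurred in 0 of the 9. The *Omd* window held none of the 5 motifs. The GC content was 63.7% for *Bgn*, 31.0% for *Aspn*, 37.7% for *Omd* and 42.3% for *Ogn*. These matches describe letters and not binding sites.

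The question addressed by the comparison was whether SLRP transcripts differ between Atrx-cKO and control tibia. All 9 tested members had a lower fitted level in Atrx-cKO, but none passed the test after adjustment. In edgeR's fit of all genes, 0 of 9 were called, against 0.0145% of all genes, and *Epyc* fell under the expression filter. DESeq2 also called 0 of 9, against 0.142% of all genes. The median log2 fold change of the 9 was -0.33, beside a median of 0.0050 over all tested genes, whose quartiles were -0.12 and 0.12. A fold change below 0 occurred in 48.8% of all genes. In edgeR only *Aspn* had an unadjusted p under 0.05, 1 of 9 against 3.64% of all genes (2.05% counting lower genes alone). In DESeq2 4 of 9 had an unadjusted p under 0.05, namely *Aspn*, *Lum*, *Dcn* and *Kera*. The share of all genes under that DESeq2 limit was not computed, so whether 4 of 9 exceeds it cannot be said. Only *Kera* had 3 Atrx-cKO libraries below all 3 controls, 1 of 9 against 4.01% of all genes lower in this way and 8.31% in either direction. Members are expressed together in matrix-forming cells and share clusters, so they are not independent measurements of a condition.

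**Figure D1:**
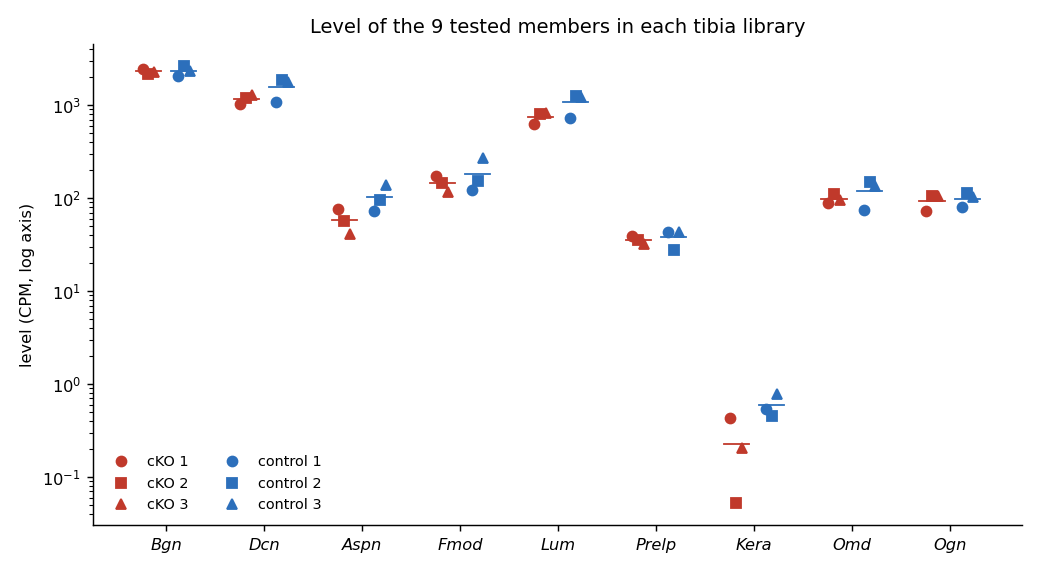
Level of each tested SLRP gene in CPM on a log axis in 3 Atrx-cKO (red) and 3 control (blue) libraries, with symbols for replicates 1 to 3 and short lines for group means. *Bgn*, *Dcn* and *Lum* lie above the other genes in every library, *Kera* lies below 1 CPM, and the groups overlap for every gene except *Kera*.

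Class I holds biglycan and decorin, which carry chondroitin or dermatan sulfate chains, and asporin, which does not. *Bgn* was counted 144107, 123764 and 134682 times in Atrx-cKO replicates 1 to 3 and 118890, 176451 and 110220 times in controls. This corresponds to 2306 ± 150 CPM in Atrx-cKO and 2349 ± 284 in control (SD, n = 3), and *Bgn* ranked 19th by CPM among all tested genes. The highest and the lowest library were both controls, and the log2 fold change was -0.03 with a 95% interval from -0.31 to 0.26 (edgeR adjusted p = 0.997). Its direction turned in edgeR when replicate 2 was left out, to 0.0066 without that of Atrx-cKO and to 0.067 without that of the controls.

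*Dcn* (ENSMUSG00000019929, chromosome 10, 97479609 to 97518143) encodes decorin, which binds collagen I and TGF-beta. It had 1017, 1205 and 1298 CPM in Atrx-cKO and 1088, 1877 and 1762 CPM in control. Control replicates 2 and 3 lay above the other 4 libraries, and control replicate 1 lay among the Atrx-cKO libraries. Group means of *Dcn* were 1173 ± 143 and 1576 ± 426 CPM (SD, n = 3). On the log2 scale Atrx-cKO differed from control by -0.43 (standard error 0.21, 95% interval -0.91 to 0.06, edgeR adjusted p = 0.992).

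*Aspn* (ENSMUSG00000021388, chromosome 13, 49544443 to 49567565) encodes asporin, which binds collagen and TGF-beta and carries an aspartate repeat. It was counted 4451, 3207 and 2423 times in Atrx-cKO and 4160, 6319 and 6574 times in control, or 76.1, 56.2 and 41.1 against 72.9, 94.9 and 138 CPM. The groups overlapped only through Atrx-cKO replicate 1, which lay above control replicate 1. Its log2 fold change of -0.82 (standard error 0.28, 95% interval -1.46 to -0.17) was the second largest of the 9 members, with an unadjusted p of 0.0195 and an adjusted p of 0.992 in edgeR. DESeq2 gave *Aspn* an adjusted p of 0.206. Without Atrx-cKO replicate 1, DESeq2 called *Aspn* at a log2 fold change of -1.06 (adjusted p = 0.0330), while edgeR did not. That DESeq2 fit called 40 genes in all and was added after the values were seen. Atrx-cKO replicate 1 was the highest of its group for *Aspn*, so its removal widens the difference by construction.

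Control replicate 3 was the highest library in *Aspn* and in the sums of tendon and of muscle markers. *Tnmd*, the tendon and ligament marker tenomodulin, had 2.50, 1.66 and 1.17 CPM in Atrx-cKO and 2.40, 3.66 and 3.93 CPM in control, and ordered the 6 libraries as *Aspn* did. *Tnmd* was picked for this after its values were seen. The sum over 8 tendon and ligament markers was 192, 193 and 200 CPM in Atrx-cKO and 174, 186 and 274 CPM in control, with no marker at 0 counts in any library. Skeletal muscle markers summed to 2917, 1529 and 839 CPM in Atrx-cKO and 972, 1096 and 14376 CPM in control. Apart from control replicate 3, the tendon sum did not order the 6 libraries as *Aspn* did. The muscle sum had the order of *Aspn* within each group but not across the groups. The part of these tissues in the *Aspn* difference was not tested. *Aspn* without control replicate 3 remained lower in Atrx-cKO, at a log2 fold change of -0.55 in edgeR.

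Class II holds *Lum*, *Fmod*, *Omd*, *Prelp* and *Kera*, several of which carry keratan sulfate chains. *Lum* (ENSMUSG00000036446, chromosome 10, 97565128 to 97572703) encodes lumican, which binds collagen fibrils in bone, skin and cornea. It had 620, 804 and 831 CPM in Atrx-cKO and 728, 1262 and 1218 CPM in control. As for *Dcn*, control replicates 2 and 3 lay above the rest and control replicate 1 lay within the Atrx-cKO range. The log2 fold change was -0.51 (standard error 0.22, 95% interval -1.02 to 0.0055, edgeR adjusted p = 0.992).

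*Fmod* (ENSMUSG00000041559, chromosome 1, 134037254 to 134048277) encodes fibromodulin, a regulator of fibril growth that is abundant in tendon. It had 173, 146 and 115 CPM in Atrx-cKO and 122, 153 and 271 CPM in control. Only control replicate 3, the library high in muscle markers and with the highest tendon marker sum, lay above all Atrx-cKO libraries. The log2 fold change of -0.33 (95% interval -1.0 to 0.35, edgeR adjusted p = 0.992) became 0.063 without that library.

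*Omd* (ENSMUSG00000048368, chromosome 13, 49582462 to 49592822) encodes osteomodulin or osteoadherin, an SLRP of mineralized tissue that binds cells and mineral. It had 89.5, 110 and 95.5 CPM in Atrx-cKO and 74.8, 149 and 134 CPM in control. The Atrx-cKO libraries lay between control replicate 1 below and control replicates 2 and 3 above. The log2 fold change was -0.28 (standard error 0.23, 95% interval -0.82 to 0.27, edgeR adjusted p = 0.992).

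*Prelp* (ENSMUSG00000041577, chromosome 1, 133910304 to 133921414) encodes a collagen and heparin binding member found in cartilage and basement membranes. It had 39.5, 35.1 and 32.3 CPM in Atrx-cKO and 43.6, 27.6 and 42.7 CPM in control, so the controls lay on either side of the Atrx-cKO range. The log2 fold change was -0.09 (95% interval -0.50 to 0.32, edgeR adjusted p = 0.994), and it became 0.024 without control replicate 1. Unlike for 7 of the 9 tested members, control replicate 1 was not the lowest control for *Prelp*.

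*Kera* (ENSMUSG00000019932, chromosome 10, 97606879 to 97613692) encodes keratocan, known from the cornea. It was counted 25, 3 and 12 times in Atrx-cKO and 31, 30 and 37 times in control, and Atrx-cKO replicate 2 was at the floor of 3 counts. The controls lay above all Atrx-cKO libraries, though the exact Poisson 95% intervals of 25 counts in Atrx-cKO replicate 1 (16.2 to 36.9) and 30 in control replicate 2 (20.2 to 42.8) overlap. These intervals cover counting error only. Group means of *Kera* were 0.228 ± 0.189 and 0.590 ± 0.168 CPM (SD, n = 3). On the log2 scale Atrx-cKO differed from control by -1.35 (standard error 0.64, 95% interval -2.85 to 0.14, edgeR adjusted p = 0.992), the largest of the family and the least precise. It moved to -2.17 without Atrx-cKO replicate 1 and to -0.90 without Atrx-cKO replicate 2 in edgeR.

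Of class III, *Ogn* (ENSMUSG00000021390, chromosome 13, 49608046 to 49624501) encodes osteoglycin or mimecan. It had 71.9, 106 and 105 CPM in Atrx-cKO and 80.3, 113 and 104 CPM in control. Replicate 1 was the lowest of its group in both genotypes, and the ranges overlapped. Its log2 fold change was -0.07 (95% interval -0.49 to 0.35, edgeR adjusted p = 0.994), and the direction turned without Atrx-cKO replicate 1, to 0.092, and without control replicate 2, to 0.035. *Epyc* (ENSMUSG00000019936, chromosome 10, 97644068 to 97682454) encodes epiphycan, a cartilage member. It was counted 0, 5 and 2 times in Atrx-cKO and 7, 1 and 1 times in control, 7 counts against 9 in all, and 3 counts are the allowance for a library at 0. No difference in *Epyc* was detectable at this depth.

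**Figure D2:**
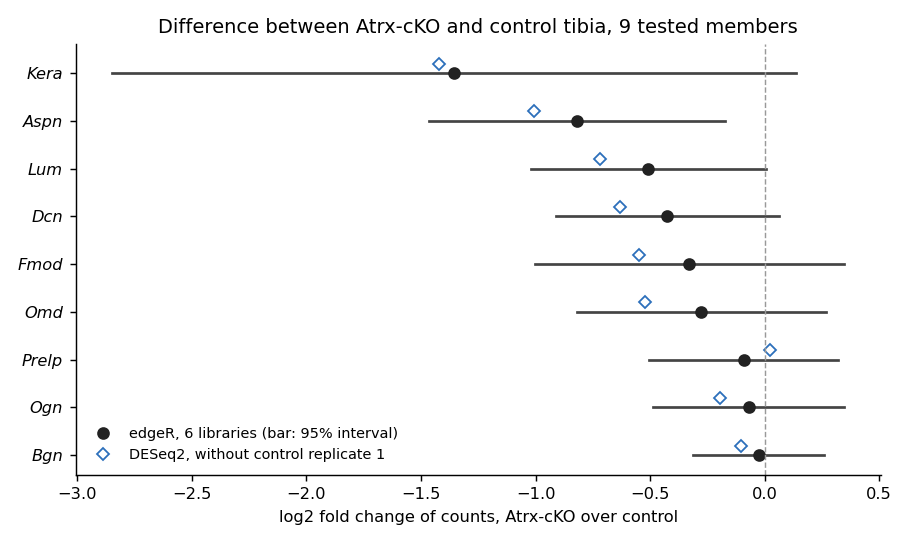
Log2 fold change of the 9 tested members, Atrx-cKO over control, from edgeR with 95% intervals (filled points, 6 libraries) and from DESeq2 without control replicate 1 (open diamonds). All filled points lie at or below -0.03 and every interval except that of *Aspn* reaches past 0, while leaving out the library moves each estimate except that of *Prelp* further down.

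Control replicate 1 carried much of the spread among the controls. For 7 of the 9 tested members it was the lowest control, for all 9 the highest of the 6 libraries was a control, and for 6 the lowest was an Atrx-cKO library. Relative to each gene's mean log2 CPM over 6 libraries, the median member was at 0.04, -0.10 and -0.15 in Atrx-cKO replicates 1 to 3 and at -0.25, 0.35 and 0.40 in control replicates 1 to 3. The lowest of these 6 medians was therefore that of a control.

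Without control replicate 1, DESeq2 called 3 members, *Dcn* (log2 fold change -0.63, adjusted p = 0.000217), *Lum* (-0.72, adjusted p = 0.000157) and *Omd* (-0.52, adjusted p = 0.00473). That fit called 2.84% of all genes, among them 10 of 12 collagens and 5 of 10 osteoblast markers. *Kera* received no adjusted p in that fit. The edgeR fit without the same library gave nearly the same fold changes but called none, with adjusted p-values of 0.170 for *Dcn*, 0.168 for *Lum* and 0.213 for *Omd*. Leaving out control replicate 2 in edgeR had the opposite effect, with log2 fold changes of -0.28, -0.37 and -0.08 for the same genes. The omission was chosen after the values were seen, no label sets this mouse apart, and its removal widens the difference by construction because it was the lowest control for these 3 genes.

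**Figure D3:**
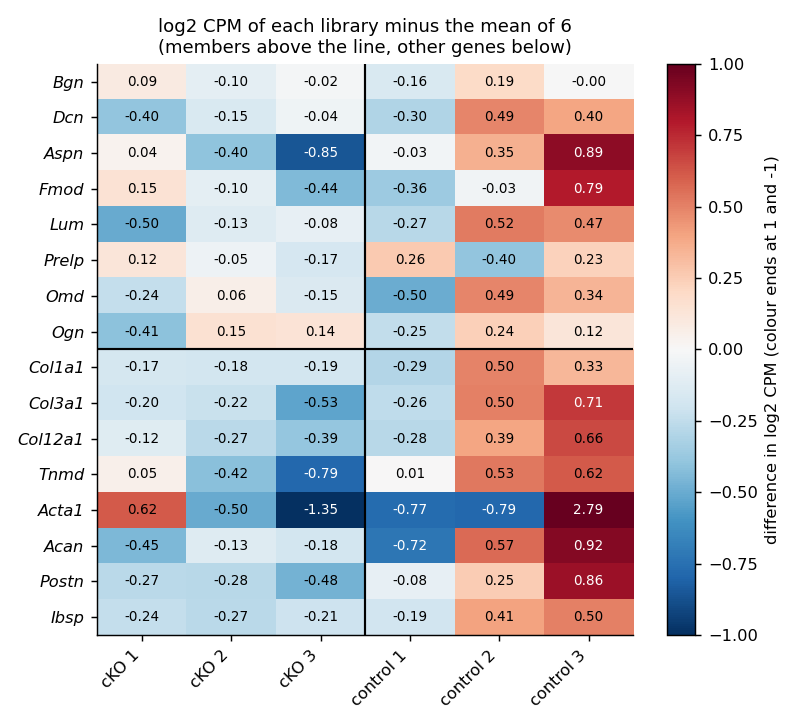
Difference of each library's log2 CPM from the gene's mean over 6 libraries, for 8 SLRP genes (above the line, *Kera* left out for its low counts) and 8 other matrix, tendon, muscle, cartilage and osteoblast genes chosen after their values were seen (below). Control replicates 2 and 3 are red for *Dcn*, *Lum*, *Omd* and *Col1a1*, whereas control replicate 1 is blue, as are the Atrx-cKO libraries except replicate 2 for *Omd*, at 0.06.

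Levels between genes were compared as CPM per kb of transcript. With all annotated exon bases as the length, the means over 6 libraries were 382 for *Bgn*, 372 for *Lum* and 235 for *Dcn*, then 49.4 for *Fmod*, 48.3 for *Omd*, 37.6 for *Ogn*, 33.9 for *Aspn* and 10.2 CPM per kb for *Prelp*. *Kera* and *Epyc* followed at 0.179 and 0.0182 CPM per kb. *Lum* lay above *Dcn*, *Dcn* above *Fmod*, *Omd* above *Ogn*, *Aspn* above *Prelp* and *Prelp* above *Kera* in 6 of 6 libraries, and *Kera* lay above *Epyc* in 5. The order of *Bgn* and *Lum* held in 4 of 6 libraries, that of *Fmod* and *Omd* in 3 and that of *Ogn* and *Aspn* in 4, so these neighbors did not differ beyond their spread.

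The place of *Bgn* depends on its length, since its exons cover 6099 bases but its longest transcript 2666. With the longest transcript as the length, *Bgn* was at 873 CPM per kb, 2.35 times *Lum*, and above it in 6 of 6 libraries. By counts alone *Bgn* took 38.7% to 54.1% of all reads on the family, and *Bgn*, *Dcn* and *Lum* together 88.5% to 91.9%. The 10 genes together took 0.450% to 0.597% of the reads counted on genes.

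The make-up of the family was compared as each member's share of the summed CPM per kb, which does not depend on library size. *Bgn* made up 40.6%, 33.6% and 34.7% of the family in Atrx-cKO and 35.2%, 29.4% and 26.5% in control, and *Lum* made up 25.4%, 31.0% and 31.4% against 30.6%, 34.9% and 34.7%. The shares of both genes overlapped between the groups through control replicate 1. The mean share of *Bgn* was 5.89 percentage points higher in Atrx-cKO and that of *Lum* differed by -4.15 points, each with p = 0.3 in a two-sided exact permutation test, in which 3 libraries against 3 cannot go below 0.1. Over the 10 members the adjusted p-values were 0.6 or above. Class I made up 57.8% ± 3.1 of the family in Atrx-cKO and 54.4% ± 3.0 in control, class II 38.7% ± 2.5 and 42.6% ± 3.2, and class III 3.50% ± 0.60 and 3.01% ± 0.20 (SD, n = 3, exact permutation p of 0.3, 0.3 and 0.4).

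**Figure D4:**
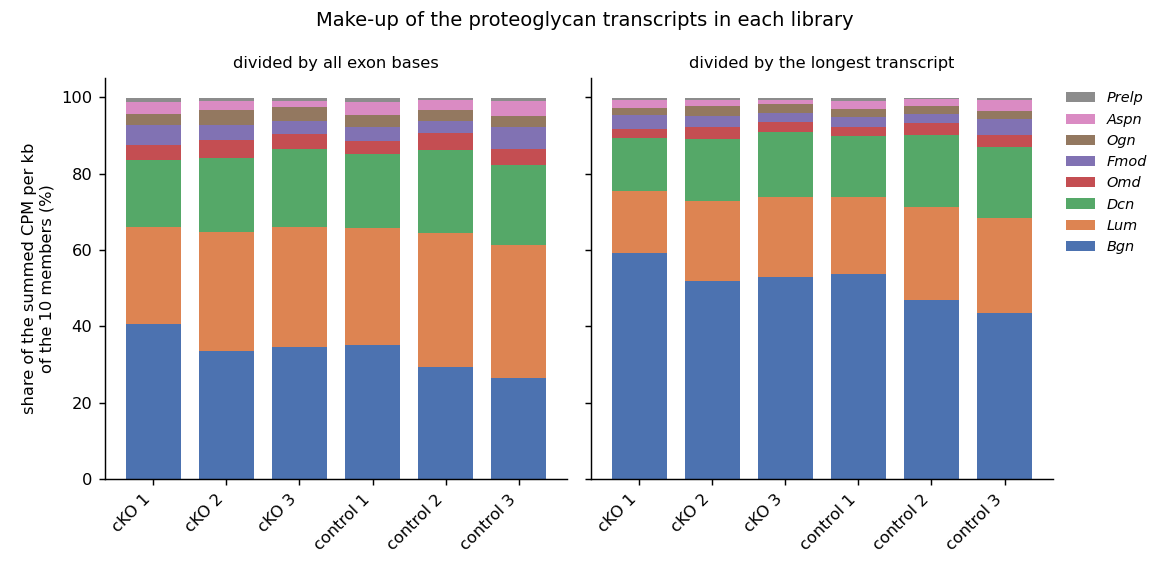
Share of each SLRP gene in the summed CPM per kb of the family in each library, as stacked bars, with all exon bases (left) or the longest transcript (right) as gene length. *Kera* and *Epyc* are too low to draw. *Bgn*, *Lum* and *Dcn* fill most of each bar, and the share of *Bgn* is larger with the shorter length.

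The summed level of the 10 members was 4552, 4630 and 4805 CPM in Atrx-cKO and 4294, 6325 and 5986 CPM in control, so the 3 Atrx-cKO libraries lay between the controls (two-sided exact permutation p = 0.4). *Col1a1* had the same pattern, with control replicate 1 lowest and control replicates 2 and 3 highest. The log2 ratio of the family to *Col1a1* was -3.63 ± 0.05 in Atrx-cKO and -3.77 ± 0.12 in control (SD, n = 3), a difference of 0.13 (exact permutation p = 0.3). With the geometric mean of the 9 tested members in place of the sum, which gives every member the same weight, the difference was -0.10 (exact permutation p = 0.6).

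In all 14 log2 ratios were compared, of which the 11 between single genes were chosen after the values were seen. *Aspn* to *Bgn* was -5.02, -5.27 and -5.80 in Atrx-cKO and -4.84, -4.80 and -4.07 in control. *Lum* to *Dcn* was -0.71, -0.58 and -0.64 in Atrx-cKO and -0.58, -0.57 and -0.53 in control, the narrowest range among the 14 ratios. Both ratios, and the family over the sum of *Col1a1* and *Col1a2*, had no overlap between groups. Each of these 3 reached 0.1, the smallest p the exact permutation test can give, and 0.42 after adjustment over the 14 ratios. The family ratio was higher in Atrx-cKO, but Atrx-cKO replicate 1 (-4.59355) and control replicate 1 (-4.5944) were almost level. For *Lum* to *Dcn*, Atrx-cKO replicate 2 (-0.5835) and control replicate 1 (-0.5811) were almost level too.

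Fold changes were also set beside those of the neighbors in the genome. On chromosome 13 the log2 fold changes were -0.19 for *Ecm2*, -0.82 for *Aspn*, -0.28 for *Omd*, -0.07 for *Ogn* and 0.14 for *Nol8*, the next tested gene after *Ogn*. *Cenpp*, which spans *Aspn*, *Omd* and *Ogn* on the opposite strand, was at -0.56 (edgeR adjusted p = 0.992). *Aspn* had the largest difference of these genes, and the log2 ratio of *Aspn* to *Ogn* differed by -0.74 between genotypes with overlapping groups (exact permutation p = 0.3). On chromosome 10 the values were -0.43 for *Dcn*, -0.51 for *Lum* and -1.35 for *Kera*, and the nearest tested genes outside, *Btg1* and *Atp2b1*, were at -0.08 and -0.24. On chromosome 1 *Optc* was at -0.03, *Gm1627* at -0.02 and *Btg2* at -0.13. *Haus7* and *Atp2b3* beside *Bgn* were at 0.07 and -1.08, the last a gene of 0.161 and 0.347 mean CPM. No neighbor was called in edgeR.

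**Figure D5:**
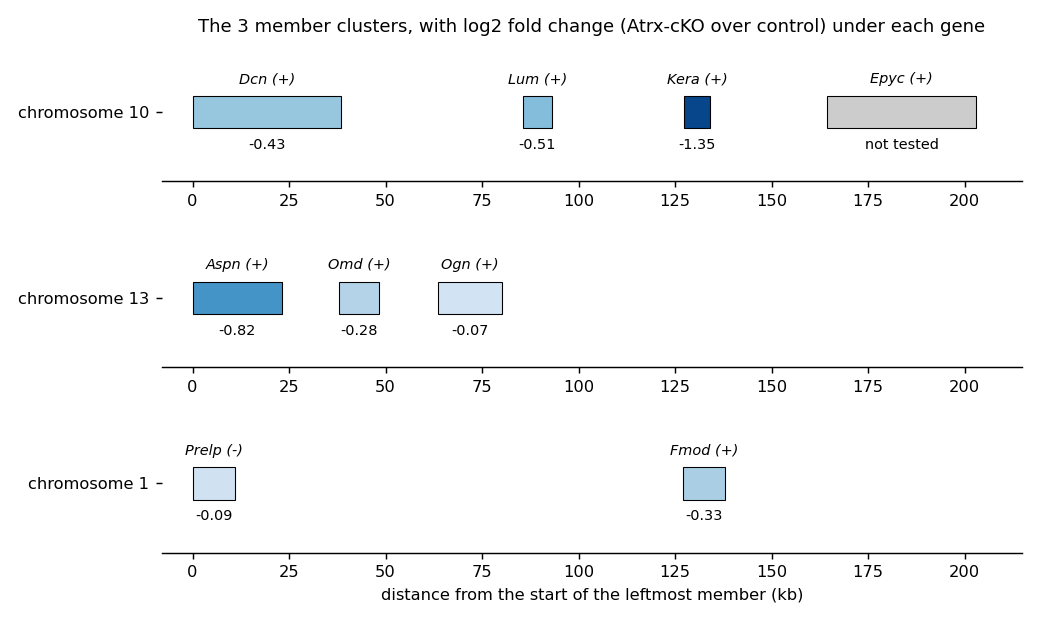
The 3 SLRP clusters drawn to scale as distance in kb from the leftmost member, with strand after each name and the edgeR log2 fold change, Atrx-cKO over control, under each gene (darker blue for lower). Values differ within the clusters, from -0.82 to -0.07 on chromosome 13 and from -1.35 to -0.43 on chromosome 10.

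The further SLRP family genes, 8 in number and all tested, had 0 called and a median log2 fold change of -0.23, with 2 genes lower without overlap, against 4.01% of all genes. *Tsku*, which encodes the secreted signaling modulator tsukushi, had 36.6, 33.8 and 38.5 CPM in Atrx-cKO and 44.4, 48.4 and 59.3 CPM in control. All controls lay above all Atrx-cKO libraries, with a log2 fold change of -0.48 (standard error 0.12, edgeR adjusted p = 0.992, DESeq2 adjusted p = 0.185). It was the only one of the 8 that DESeq2 called without control replicate 1 (-0.57, adjusted p = 0.00203), in a fit that called 2.84% of all genes. That library was the lowest control for *Tsku*, so its removal widens the difference by construction. *Chadl*, the chondroadherin-like gene, was also lower without overlap, at 7.35 ± 0.59 CPM against 9.11 ± 0.73 (SD, n = 3, log2 fold change -0.31, edgeR adjusted p = 0.992). The most abundant of the 8 by CPM was *Podnl1*, at 44.4 ± 8.0 and 54.0 ± 10.2 CPM with overlapping groups.

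The enzymes that build the glycosaminoglycan chains had medians near 0. Of 22 chondroitin and dermatan sulfate genes, 0 were called and the median log2 fold change was -0.05. *Chst11*, a chondroitin sulfotransferase and the most abundant of them, had 125 ± 8 and 133 ± 14 CPM. *Fam20b*, the xylose kinase of the linkage region, was the only one without overlap, higher by a log2 fold change of 0.05. This was 1 of 22, against 8.31% of all genes without overlap in either direction. Of 8 keratan sulfate genes, 0 were called and the median was 0.05. The galactosyltransferase *B4galt1* was both most abundant and the only one without overlap, 1 of 8 against the same 8.31%. It was at 142 ± 7 against 133 ± 3 CPM (log2 fold change 0.09).

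The collagens that SLRPs bind, 12 genes and all tested, had a median log2 fold change of -0.41, with 0 called and none without overlap. Among them *Col3a1* (-0.68), *Col11a1* (-0.66), *Col12a1* (-0.56) and *Col2a1* (-0.56) had unadjusted p-values under 0.05 in edgeR. These were 4 of 12, against 3.64% of all genes (2.05% counting lower genes alone), and each had an edgeR adjusted p of 0.992. They were named after their p-values were seen. *Col1a1*, the most abundant, had 57855 ± 300 CPM in Atrx-cKO and 76231 ± 20257 in control (SD, n = 3, log2 fold change -0.40, edgeR adjusted p = 0.992). Its 3 Atrx-cKO libraries lay close together between control replicate 1 and the other controls. Without control replicate 1 the median of the 12 was -0.60 in edgeR. DESeq2 without it called 10 of them lower, against 2.84% of all genes called in either direction. Among them were *Col1a1* (-0.60, adjusted p = 1.85e-07), *Col3a1* (-0.92, adjusted p = 1.35e-08) and *Col11a1* (-0.89, adjusted p = 2.82e-09). That library was the lowest control for each of these named collagens, and its omission was chosen after the values were seen. Its removal therefore widens their differences by construction.

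Of 15 genes for collagen crosslinking and propeptide processing, 0 were called and the median was -0.10. The lysyl oxidase *Lox* was the most abundant at 819 ± 68 and 1083 ± 297 CPM, and *Loxl2*, a lysyl oxidase-like enzyme, had 231, 292 and 305 CPM in Atrx-cKO and 310, 685 and 552 CPM in control. The groups of *Loxl2* did not overlap, although Atrx-cKO replicate 3 and control replicate 1 were almost level, and the log2 fold change was -0.90 (edgeR adjusted p = 0.992). It was the only gene of the list without overlap, 1 of 15 against 4.01% of all genes lower in this way. Without control replicate 1, DESeq2 called 4 of the 15 lower, including *Loxl2* (-1.16, adjusted p = 7.99e-10), against 2.84% of all genes in either direction. That library was the lowest control for *Loxl2*, so its removal widens the difference by construction. Of 9 proteases reported to cleave SLRPs, 0 were called in edgeR and the median was -0.21. *Mmp13* was the most abundant, and *Htra1* was lower without overlap at 57.1 ± 4.1 against 89.8 ± 21 CPM (log2 fold change -0.65, edgeR adjusted p = 0.992, DESeq2 adjusted p = 0.0489). *Gzmb*, the granzyme of cytotoxic lymphocytes, was higher without overlap at 1.23 ± 0.28 against 0.595 ± 0.172 CPM. These were 1 of 9 lower and 1 of 9 higher, against 8.31% of all genes without overlap in either direction. Without control replicate 1, the lowest control for *Htra1* and *Mmp13*, DESeq2 called 4 of the 9 lower, including both. That fit called 2.84% of all genes in either direction.

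The ligands and receptors bound by SLRPs, 16 genes with *Lrp1* the most abundant, had 0 called, none without overlap and a median of -0.06. Other proteoglycans, 18 of 19 tested with *Sdc3* the most abundant, had 0 called, none without overlap and a median of -0.16. *Spock3*, the gene not tested, was at 0 counts in some libraries. Without control replicate 1, DESeq2 called 3 of the 18 other proteoglycans and 1 of the 16 ligands and receptors, all lower. It also called 1 of the 22 chondroitin and dermatan sulfate genes, lower, and 0 of the 8 keratan sulfate genes. That fit called 2.84% of all genes in either direction.

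Marker lists of the cell types in tibia also had 0 genes called in edgeR. The median log2 fold changes were -0.27 for osteoblast markers, -0.17 for osteocyte, 0.01 for chondrocyte, -0.29 for tendon and ligament, -0.17 for periosteal and soft tissue fibroblast, 0.07 for marrow stromal cell, -1.51 for skeletal muscle, -0.35 for adipocyte, 0.11 for erythroid, 0.20 for neutrophil and 0.17 for B cell markers. Some of these medians rested on 1 library. In edgeR the muscle median became 0.68 and the chondrocyte median 1.01 without control replicate 3, and the chondrocyte median became -0.58 without Atrx-cKO replicate 3. The erythroid median became 0.62 without control replicate 1 and -0.15 without control replicate 2. The marrow stromal cell median became -0.07 without Atrx-cKO replicate 3, and the B cell median -0.03 without control replicate 2. The most abundant marker of each list was, in the same order, *Col1a1*, *Dmp1*, *Col11a2*, *Fibin*, *Serpinf1*, *Cxcl12*, *Myh4*, *Fabp4*, *Hbb-bs*, *Ngp* and *Ebf1*, and no marker was at 0 counts in a library.

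Of the matrix cell markers, *Ibsp*, *Postn*, *Dpt* and *Mfap5* were lower in Atrx-cKO without overlap between groups, 1 of 10 osteoblast and 3 of 10 fibroblast markers against 4.01% of all genes. *Ibsp*, the bone sialoprotein of osteoblasts, had 1264, 1238 and 1293 CPM in Atrx-cKO and 1307, 1978 and 2114 CPM in control (log2 fold change -0.51, edgeR adjusted p = 0.992). The fibroblast genes *Postn*, *Dpt* and *Mfap5* had log2 fold changes of -0.73, -0.95 and -1.18, while *Col14a1*, *Pi16* and *Gsn* of the same list were at 0.06, 0.03 and -0.06. Without control replicate 1, DESeq2 called *Ibsp* (-0.69, adjusted p = 6.86e-13) and *Postn* (-0.92, adjusted p = 3.28e-05) lower. That library was the lowest control for both, so its removal widens these differences by construction. Called lower in that fit were 5 of 10 osteoblast, 3 of 11 chondrocyte, 1 of 10 fibroblast, 1 of 8 osteocyte and 1 of 8 tendon and ligament markers. Called higher were 5 of 8 erythroid markers and 1 of 8 B cell markers. The same fit called 2.84% of all genes in either direction. The omitted library had the highest erythroid sum of the controls, 5860 CPM against 2281 and 2822. Its B cell sum was also the highest of the controls, 332 CPM against 186 and 261. Its removal therefore widens the rise of these sums by construction. Summed osteoblast markers were 117857, 117927 and 121936 CPM in Atrx-cKO and 111534, 188775 and 170200 CPM in control, with control replicate 1 again lowest. The part of osteoblast, fibroblast, tendon and muscle content in the SLRP values was not tested.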

How the data were processed

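For each of the 6 libraries the authors deposited raw counts per gene, without normalization. Libraries were strand specific per the labels and made with the TruSeq RNA Sample Prep Kit v2, and GENEWIZ sequenced them as 150-base paired reads. The submitters' processing notes name GRCm38 and DESeq2, and the aligner and the counter are not given in the sources used here. Lines that name no gene were dropped before library sizes were computed, among them reads on no feature, at 51.6% to 52.4% of a table. No column came from another series.

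Groups came from the genotype and title labels. Libraries of a genotype differed by more than sampling noise (chi-square per degree of freedom 15.8 to 137) and were kept as 3 replicates per group. The p-values measure the spread between these libraries, which no label ties to litters or batches. Symbols, lengths and positions came from GENCODE M21 on GRCm38, which held 55141 of 55401 identifiers. Counts were fitted with edgeR 4.0.16 in R 4.3.3 (TMM, filterByExpr at its defaults, glmQLFit and glmQLFTest, genotype alone, Benjamini-Hochberg over 20636 genes, called at an adjusted p under 0.05). DESeq2 1.42.0 was the alternative test. On simulated counts for 20636 genes the edgeR fit recovered 178 of 200 genes changed by 2 on the log2 scale, with 6 false calls. Those changes were larger than the fitted change of any member, and no simulated library stood apart from its group. The recovery therefore does not measure the power for changes of the size seen in the members. Shares and ratios were compared by two-sided exact permutation tests (scipy 1.17.1). Same-numbered libraries did not deviate together (correlations -0.00315, 0.108 and -0.0996), so replicate numbers were not used as pairs.

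The members and gene lists were chosen with earlier results of these data known. Genes were named if they were members, *Atrx*, *Col1a1*, the nearest tested genes, the most abundant gene of a list, or up to 3 of a list with the largest change among those without overlap. The DESeq2 fits without each library were added after the values were seen. So were the collagens named for their unadjusted p, *Tnmd*, *Spock3*, *Col14a1*, *Pi16*, *Gsn* and the fold change of *Cenpp*. Alternatives of normalization, filter, test, replicate block, gene length, denominator and left-out library are given at the end.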

Additional observations from a re-analysis of the deposited data

How the results depend on the processing

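The number of members called was 0 in every edgeR setting and in DESeq2 over 6 libraries, and 0 to 3 when 1 library was left out. Over all genes, 3 calls became 10 with no filter, 1 with at least 10 counts in every library and 37 in DESeq2, and 0 to 516 when 1 library was left out, the highest being DESeq2 without control replicate 1. The replicate block called 0 genes and changed no call of a member. The median of the members ran from -0.55 to -0.19 without 1 library, and *Kera* from -2.19 to -0.90. Directions turned within the leave-one-out ranges of the log2 fold changes of *Bgn* (-0.11 to 0.067), *Ogn* (-0.20 to 0.095), *Prelp* (-0.28 to 0.024) and *Fmod* (-0.55 to 0.066), and of the share differences, in percentage points, of *Fmod* (-0.54 to 0.75), *Omd* (-0.14 to 0.39), *Prelp* (-0.087 to 0.28) and *Epyc* (-0.00136 to 0.00100). With the longest transcript as the length, the share differences of *Fmod* and *Omd* were -0.17 and -0.033 points. The log2 ratio of the family to *Col1a1* was -0.099 with the geometric mean. The cause of these turns was not tested. *Kera* could not be tested with at least 10 counts in every library. Depth limits *Kera*, with 3 to 37 counts per library, and *Epyc*, with 0 to 7.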
